A study of Mus musculus with 11 samples.

Results

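Radial spoke genes were examined for sites of RFX1, RFX2 and RFX3 in mouse ependymal cells, whose motile cilia move the fluid of the brain ventricles. The 10 genes were Rsph1, Rsph3a, Rsph3b, Rsph4a, Rsph6a, Rsph9, Rsph14, Dnajb13, Nme5 and Ropn1l, out of 21887 protein-coding genes in the annotation. They were chosen by function, but with earlier results of these data known. Their peaks were those of the 3 deposited lists with a summit, the position of strongest signal, inside or within 10 kb of a member gene. This gave 36 peaks: 14 of the 7440 in the RFX1 list, 15 of the 9318 in the RFX3 list and 7 of the much shorter RFX2 list. The lists came from chromatin immunoprecipitation and sequencing (ChIP-seq) of ex vivo differentiated cells from wild-type OF1 mice, taken from the lateral walls of the brain at P0, with the tissue labelled embryonic. There were 2 ChIP samples for each RFX and 5 input samples without antibody, all of this 1 strain and with no treatment labelled. Each RFX had its own antibody, and the RFX2 antibody differed in lot between the replicates. Replicates were merged in each list, so the values have no replicate error, and no test between conditions was possible. The labelled cell type could not be checked against markers, since the lists hold binding sites and not expression.

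Radial spokes are T-shaped complexes that stand on the outer microtubule doublets of a motile cilium and reach toward the central pair. They pass signals between the central pair and the dynein motors, and the loss of spoke proteins disturbs the ciliary beat, in people as primary ciliary dyskinesia. RFX factors are winged-helix proteins that bind the X-box, an inverted repeat found in the promoters of many ciliary genes.

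The sequences shown first are X-box matches near the summits of the member promoters. Not every summit lies within the stretch printed for its gene. Promoter sequences from RefSeq (build GRCm38.p6), which run from 250 bases before to 50 bases after a start, were matched by symbol for 7 of the 10 genes: Rsph3a, Rsph3b, Rsph6a, Rsph9, Rsph14, Dnajb13 and Ropn1l. Rsph1, Rsph4a and Nme5 were not matched. The X-box was searched as GTTNCC and GGNAAC with a gap of 1 to 3 bases between them, and up to 2 mismatches over the 10 fixed letters. This pattern is its own reverse complement, so a search of 1 strand covers both. Each line gives the match nearest the RFX1 summit of that promoter (the RFX3 summit for Rsph3b), 5′ to 3′ along the gene, with the match in capitals and 7 bases on either side.
Ropn1l, chr15:31453690-31453716, minus strand: agctcggGTTGCCTGGAGACcgcacgc
Rsph3b, chr17:6948328-6948354, minus strand: acctcggGTTGCTCGGCAACcgatggg
Rsph9, chr17:46144186-46144213, minus strand: gctcaggGTCTCCATGGAGACagcttct
Rsph14, chr10:75032581-75032607, minus strand: gctggcaGTCTCCTAGCAACcaggtcg
Dnajb13, chr7:100514815-100514843, minus strand: actcgtgGTTGTCAGGAGCAACcacagaa
The Ropn1l and Rsph3b matches had 1 mismatch each, and the other three had 2. The 2 half-sites stood 1 base apart in Ropn1l, Rsph3b and Rsph14, 2 apart in Rsph9 and 3 apart in Dnajb13.

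For context, the 100 bases before the annotated start are shown for a gene with all 3 factors (Ropn1l, chr15:31453690-31453789), one with RFX1 and RFX3 (Dnajb13, chr7:100514816-100514915) and the one gene with no peak (Rsph3a, chr17:7945514-7945613). Capitals again mark the X-box match.
Ropn1l, minus strand: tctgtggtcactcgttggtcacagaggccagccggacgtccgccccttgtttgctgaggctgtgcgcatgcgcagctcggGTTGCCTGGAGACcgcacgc
Dnajb13, minus strand: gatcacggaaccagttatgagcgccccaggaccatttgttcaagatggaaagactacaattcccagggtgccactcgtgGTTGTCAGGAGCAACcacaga
Rsph3a, plus strand: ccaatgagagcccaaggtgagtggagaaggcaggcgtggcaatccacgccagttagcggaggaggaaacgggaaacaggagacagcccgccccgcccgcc
In the whole Rsph3a window the best match to the pattern had 3 mismatches, so no letters of it are in capitals.

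Most radial spoke genes held a site of more than one RFX, and 8 of the 10 genes had a site at one of their ends. An RFX1 summit lay inside or within 10 kb of 8 of the 10 genes, against 24.9% of all protein-coding genes. RFX3 summits lay there at 9 of 10, against 25.3%, and RFX2 summits at 6 of 10, against 5.93%. At least 1 factor was called at 9 genes, against 29.8%. All 3 factors were called at 6 genes (Rsph1, Rsph4a, Rsph6a, Rsph14, Nme5 and Ropn1l), against 5.87% of all genes. Rsph9 and Dnajb13 had RFX1 and RFX3, Rsph3b had RFX3 alone, and Rsph3a had none. The counts depended on the length of the lists. With the RFX1 and RFX3 lists cut to as many of their best peaks as the RFX2 list holds, RFX1 remained at 6 genes. RFX3, and all 3 factors together, remained at 4 genes, namely Rsph4a, Rsph6a, Nme5 and Ropn1l. Shares of all genes with these shorter lists are not given. Where a factor had no peak, its absence is not shown: the site was only not called.

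Peaks that shared at least 1 bp were merged, and the 36 peaks fell into 16 regions. Of these, 7 held all 3 factors, 6 held RFX1 and RFX3, 2 held RFX3 alone and 1 held RFX1 alone. The share of each class over all regions of the lists is not given, so these counts have no background. An end region, with all its summits within 150 bp of an annotated end of the member gene, was present at 8 of the 10 genes, once in each. The other 8 regions lay inside a member in 3 cases and outside it in 5. By factor, 8 genes had such an RFX3 summit, against 4.07% of protein-coding genes, 7 an RFX1 summit, against 4.59%, and 5 an RFX2 summit, against 1.17%. All 3 were called in the end regions of 5 genes, against 1.13% of all genes, and at least 1 in those of 8, against 5.19%. The members without an end region were Rsph3a, with no peak, and Rsph6a, whose only region lay next to another gene. End summits were not particular to the members. At least 1 factor lay at an end of 7 of 11 other spoke, 7 of 11 nexin-dynein and 10 of 15 central pair genes. The distance of 150 bp was chosen after the summit positions were seen.

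**Figure D1:**
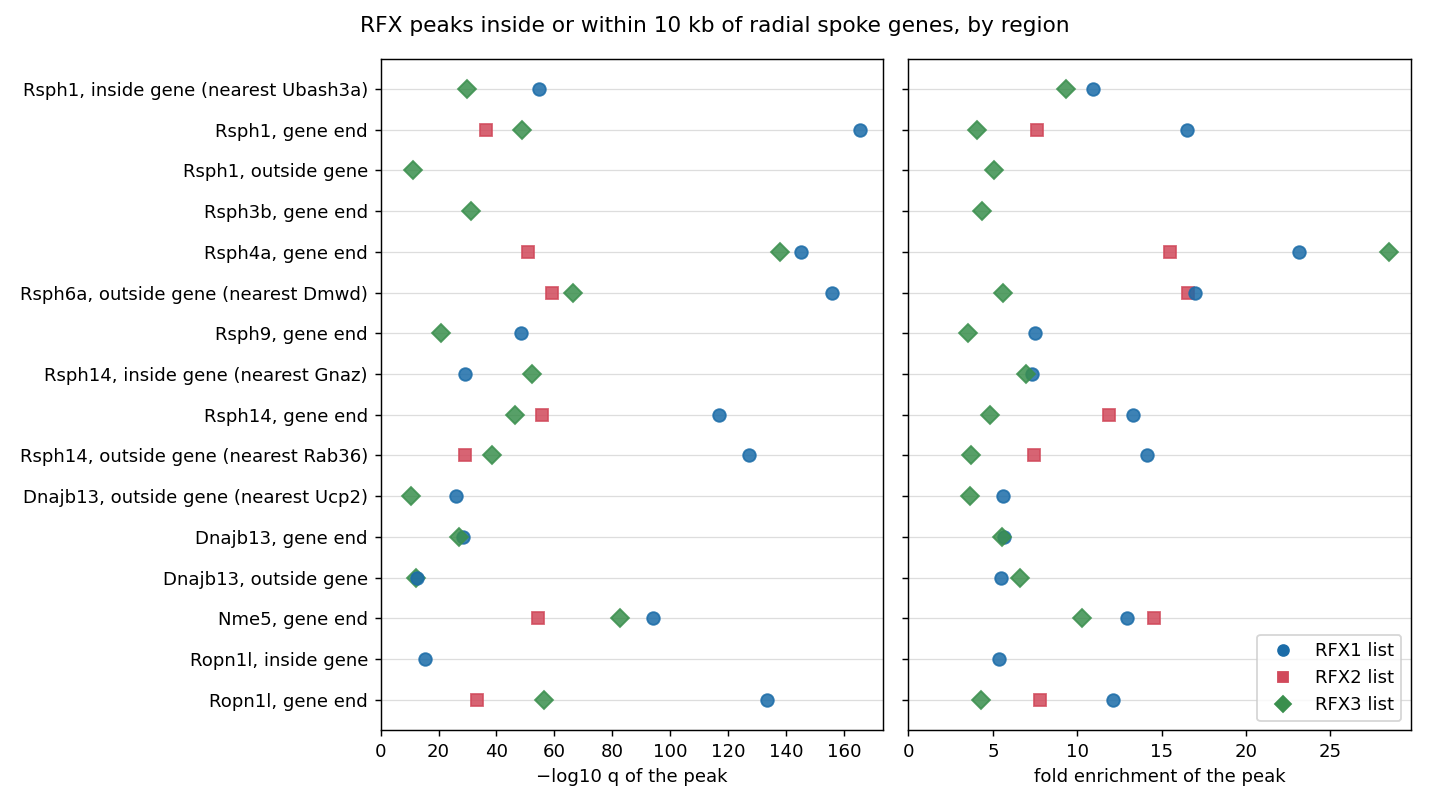
Values of all 36 peaks in the 16 regions of the radial spoke genes, 1 row per region, with the deposited −log10 q on the left and the deposited fold enrichment on the right, and 1 point per peak coloured by list. Each point is the authors' value for a merged list, so there are no error bars. The RFX1 values of the 7 regions with all 3 factors run from 93.9 to 165 in −log10 q, and Rsph4a has the highest RFX1 and RFX3 folds.

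The deposited values of a peak are its fold enrichment over background, read as a ratio, and its q-value on a −log10 scale; both are the authors' own and are compared here only within a list. Spoke head genes come first. Rsph4a, which encodes a core protein of the spoke head, lies at chr10:33905111-33916021 and had the highest RFX1 and RFX3 folds of the members. Its RFX1 peak (chr10:33904785-33905233) had a fold of 23.2 and a −log10 q of 145, rank 185 of its list. Its RFX3 peak (chr10:33904779-33905379) had a fold of 28.5 and a −log10 q of 138, rank 68. The RFX2 peak (chr10:33904659-33905242) had a fold of 15.5 and a −log10 q of 50.7, rank 241. The RFX1 and RFX3 peaks were thus within the top 2.49% and 0.730% of their lists, and the RFX2 peak within the top 19.3%. No other peak of any list had a summit within 10 kb of Rsph4a, and its 3 summits lay 102, 128 and 70 bp outside the lower-coordinate end for RFX1, RFX3 and RFX2.

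Rsph1, a spoke head protein gene with MORN repeats, lies at chr17:31255019-31277296 and had 3 regions. The region at its higher-coordinate end held all 3 factors. The RFX1 peak there (chr17:31277145-31277638) had the highest −log10 q of the RFX1 member peaks, 165, with a fold of 16.5 and rank 85. The RFX2 peak there had a fold of 7.61 and a −log10 q of 36.5, and the RFX3 peak a fold of 4.07 and a −log10 q of 48.7. The fold of the RFX3 peak was therefore low within its list, whose median is 7.45, while its −log10 q was above the median of 19.9.
A second region lay inside the gene and held RFX1 (fold 10.9, −log10 q 54.7) and RFX3 (fold 9.32, −log10 q 29.9). It was nearer to an end of Ubash3a, a gene of T cell signalling that overlaps Rsph1, at 3197 bp for RFX1, than to an end of Rsph1, at 7859 bp. The third region, 5530 bp outside Rsph1, held an RFX3 peak alone, with a fold of 5.06 and a −log10 q of 11.1. That peak ranked 7864 of the 9318 in its list.

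Rsph9, a further spoke head gene, lies at chr17:46122038-46144242 and had weaker values. Its single region held RFX1 (chr17:46144053-46144357), with a fold of 7.51 and a −log10 q of 48.5, and RFX3 (chr17:46144072-46144322), with a fold of 3.53 and a −log10 q of 21.0. No RFX2 peak was called. The RFX1 summit lay 1 bp from the annotated start at position 46144200 and the RFX3 summit 9 bp from it. Both lay inside the gene, since the gene model extends 41 bp beyond the RFX1 summit.

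Rsph6a encodes a spoke head protein known from sperm flagella and lies at chr7:19054678-19074447. Its only region, with all 3 factors, lay 1577 to 1607 bp outside the gene, on the side away from its start. The RFX1 peak (chr7:19075779-19076276) had a fold of 16.96 and a −log10 q of 156, the RFX2 peak a fold of 16.6 and a −log10 q of 59.2, and the RFX3 peak a fold of 5.63 and a −log10 q of 66.5. These were strong peaks, with an RFX1 rank of 128 and an RFX2 rank of 172. They lay 69, 88 and 58 bp from an end of Dmwd, a WD-repeat gene, so that Dmwd and not Rsph6a was the nearest gene. The annotated start of Rsph6a had no RFX summit in its promoter window.

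The stalk genes Rsph3a and Rsph3b are mouse copies of the gene for the stalk protein that anchors other spoke subunits. Rsph3b (chr17:6904716-6948356) had 1 peak, of RFX3 (chr17:6948175-6948434), with a fold of 4.37 and a −log10 q of 31.1. Its summit lay 41 bp inside the gene from the annotated start. Rsph3a (chr17:7945614-7979556) had no peak of any list inside it or within 10 kb, and the nearest summits were 304059 bp away for RFX1, 112192 bp for RFX3 and 1939264 bp for RFX2. Reads from similar copies can map to both, and how the authors treated such reads is not stated in the labels or processing notes. The promoter windows of the 2 genes shared no run longer than 8 bases on the same strand or 9 on opposite strands. The Rsph3b window covers only part of its RFX3 peak, and mapping of reads to both copies was not tested.

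Ropn1l encodes a stalk protein of the ropporin family, with a docking domain like that of protein kinase A regulatory subunits. The gene lies at chr15:31441210-31453689 and had all 3 factors at its start. The RFX1 peak (chr15:31453485-31453938) had a fold of 12.1 and a −log10 q of 133, rank 260. The RFX2 peak had a fold of 7.77 and a −log10 q of 33.1, and the RFX3 peak a fold of 4.33 and a −log10 q of 56.6. The summits lay 20, 10 and 8 bp outside the start for RFX1, RFX2 and RFX3, in the stretch that also holds the X-box match printed above. An end of the lncRNA gene Gm49208 lies within the same region. A second region, inside Ropn1l, held RFX1 alone, with a fold of 5.39 and a −log10 q of 15.2.

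Dnajb13, a J-domain protein gene of the spoke, lies at chr7:100503011-100514815 and had RFX1 and RFX3 but no RFX2 in 3 regions. At its start, the RFX1 peak (chr7:100514723-100514988) had a fold of 5.67 and a −log10 q of 28.4, and the RFX3 peak (chr7:100514650-100514909) a fold of 5.53 and a −log10 q of 27.0. The summits lay 1 and 2 bp from the start. The RFX1 −log10 q was near the list median of 29.1 and the RFX3 −log10 q above the list median of 19.9, while both folds were below the list medians of 7.51 and 7.45. The region 4318 to 4369 bp before the start was weaker, with a −log10 q of 12.4 for RFX1 and 12.3 for RFX3. The third region lay inside the neighbouring gene Ucp2, which encodes a mitochondrial carrier, with a −log10 q of 25.9 for RFX1 and 10.4 for RFX3. Its summits were 7271 and 7280 bp outside Dnajb13, the farthest counted under the 10 kb rule, and the nearest summit left out by it was an RFX3 summit 24822 bp from Rsph3b (fold 7.06, −log10 q 9.69).

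Nme5, of the nucleoside diphosphate kinase family and a spoke component, lies at chr18:34562634-34579152. Its single region held all 3 factors at the higher-coordinate end. The RFX1 peak had a fold of 12.9 and a −log10 q of 93.9, the RFX2 peak a fold of 14.5 and a −log10 q of 54.5, and the RFX3 peak a fold of 10.3 and a −log10 q of 82.7. The RFX1 and RFX2 summits were at the same base, 40 bp inside the gene, and the RFX3 summit was 76 bp inside it. Nme5 and Rsph4a were the members whose end regions had an RFX3 fold above the median of that list. An end of the neighbouring gene Brd8dc lay 734 bp from the RFX1 summit.

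Rsph14, an armadillo-repeat protein gene, is the longest member (chr10:74957477-75032642) and had 3 regions. At its start, RFX1 had a fold of 13.3 and a −log10 q of 117, RFX2 a fold of 11.9 and a −log10 q of 55.6, and RFX3 a fold of 4.86 and a −log10 q of 46.4. The RFX1 summit lay 1 bp from the annotated start at position 75032586, the RFX3 summit 10 bp and the RFX2 summit 20 bp. The gene has a second annotated start, at position 75032553, and the same region covers both.
The region 4489 to 4520 bp outside Rsph14 also held all 3 factors (RFX1 fold 14.2, RFX2 7.42, RFX3 3.73), but it lay 236 to 267 bp from an end of Rab36, a small GTPase gene. Within Rsph14, RFX1 (fold 7.33) and RFX3 (fold 6.95) had a region 105 and 72 bp from an end of Gnaz, a G protein subunit gene that lies inside the Rsph14 gene. Of all 16 regions, 11 had the member as the nearest protein-coding gene and 5 had another gene. No such count for other genes is given beside it.

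Among the 10 members, end regions without RFX2 had lower −log10 q in the other lists. In the 5 end regions where RFX2 was called (Rsph1, Rsph4a, Rsph14, Nme5 and Ropn1l), the RFX1 −log10 q ran from 93.9 to 165 and the fold from 12.1 to 23.2. At Rsph9 and Dnajb13, where it was not called, the RFX1 −log10 q was 48.5 and 28.4 and the fold 7.51 and 5.67. For RFX3 the −log10 q was 46.4 to 137.7 with RFX2 and 21.0 to 31.1 without it (Rsph9, Dnajb13 and Rsph3b). The RFX3 folds overlapped, at 4.07 to 28.5 and 3.53 to 5.53. This split was made after the values were seen and was not tested. No such split of all gene ends is given, so the pattern is not shown to be particular to the members. It held only in part for the other spoke genes. Ppil6 and Cfap61 had strong end peaks of RFX1 and RFX3 with no RFX2 peak. At Ppil6 the RFX1 fold was 20.3 and the −log10 q 164 (RFX3 −log10 q 75.4), and at Cfap61 they were 13.3 and 108 (RFX3 −log10 q 69.9). The remaining RFX1 end peaks without RFX2 had a −log10 q of 30.2 (Iqub), 17.7 (Dydc1) and 23.9 (Cfap206). With RFX2 it was 130 at Dynll1 and 151 at Maats1.

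Over the whole set, the 14 RFX1 member peaks had a median −log10 q of 74.3, beside 29.1 over all RFX1 peaks and 54.6 over the RFX1 peaks within 150 bp of any protein-coding gene end. The 7 RFX2 member peaks had a median of 50.7, beside 30.1 and 33.2. The 15 RFX3 member peaks had a median of 38.6, beside 19.9 and 34.4. These member peaks include inner and outside ones. Those within 150 bp of an end of the member had medians of 117 for RFX1 (7 peaks), 50.7 for RFX2 (5) and 47.6 for RFX3 (8). Median fold enrichment of the member peaks was 11.5, 11.9 and 5.06 for RFX1, RFX2 and RFX3, beside 7.51, 9.96 and 7.45 over all peaks. The median RFX3 fold of the members was thus below that of the list, although their median −log10 q was above it; the end peaks of Rsph4a and Nme5 and the inner peak of Rsph1 had RFX3 folds above the list median. RFX3 peaks at gene ends in general had a median fold of 4.82.

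**Figure D2:**
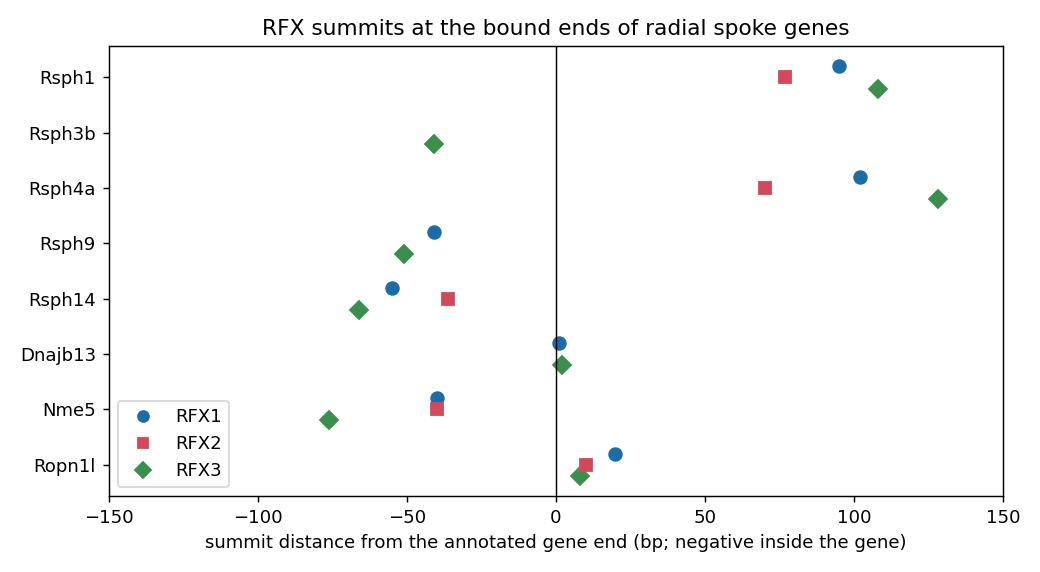
Distance of each RFX summit from the annotated end of the 8 radial spoke genes with an end region, in bp, negative inside the gene and positive outside it, with 1 point per summit coloured by factor. The summits of a gene cluster on one side of its end: outside for Rsph1, Rsph4a, Dnajb13 and Ropn1l, and inside for Rsph3b, Rsph9, Rsph14 and Nme5.

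Within the merged regions, summits of different factors lay close together. Merging peaks that share bases itself limits these spans. Spans over all regions of the lists are not given, so the closeness is not shown to be particular to the members. In the 7 regions with all 3 factors the summits spanned 12 to 58 bp, with a median of 31 bp; the narrowest was the start of Ropn1l and the widest the end of Rsph4a. In the 6 regions with RFX1 and RFX3 they spanned 1 to 51 bp, with a median of 19 bp, and the start of Dnajb13 was the narrowest.

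The summits of the member promoters also lay close to the X-box matches. At Ropn1l the summits were 6 bp from the centre of the match for RFX1, 4 bp for RFX2 and 6 bp for RFX3. At Rsph9 they were 1.5 bp for RFX1 and 8.5 bp for RFX3, at Dnajb13 13 and 12 bp, and at Rsph14 7, 12 and 18 bp for RFX1, RFX2 and RFX3. The RFX3 summit of Rsph3b was the farthest, at 26 bp. A second match in Rsph14, also with 2 mismatches, lay 9, 28 and 2 bp from the RFX1, RFX2 and RFX3 summits. Over all promoters with both a summit and a match, the median distance to the nearest match was 7 bp for RFX1 (1032 promoters), 9.5 bp for RFX2 (304) and 12.5 bp for RFX3 (969). The share of these promoters with a distance of 30 bp or less was 85.2%, 86.5% and 80.3%.

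**Figure D3:**
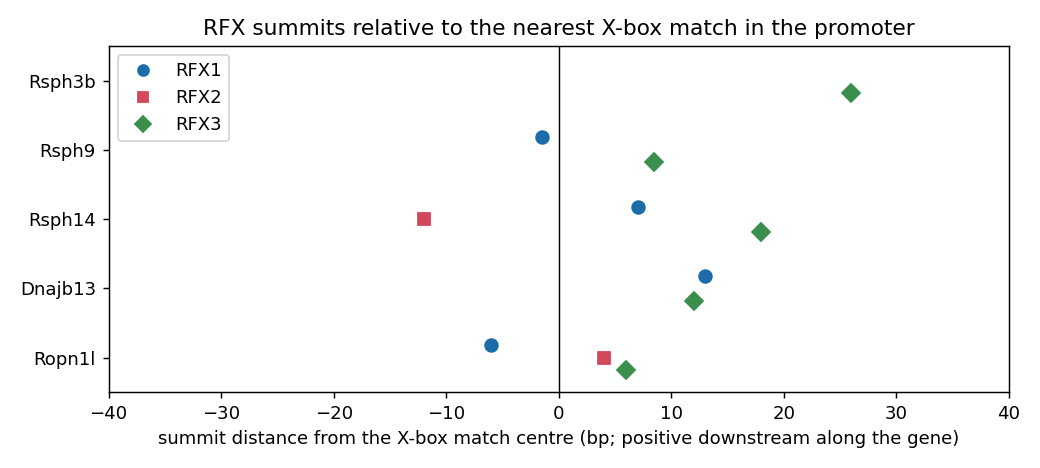
Distance of each RFX summit from the centre of the X-box match nearest the RFX1 summit (RFX3 for Rsph3b) in the promoters of 5 radial spoke genes, in bp along the direction of the gene, with 1 point per summit coloured by factor. All summits plotted lie within 26 bp of the centre of the match.

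A match by itself was common. Of the 7 member promoters, 6 held at least 1 match with up to 2 mismatches, but so did 29.7% of all 32851 promoter windows in the table, and 27.4% of the windows with no RFX summit. Among windows with an RFX1, RFX2 or RFX3 summit the share was 80.6%, 90.2% and 81.9%. The sixth member with a match was Rsph6a, whose match lay far from the start, at position -205 counted from it, with no RFX summit in the window.
With up to 1 mismatch, Ropn1l and Rsph3b were the 2 members with a match, beside 4.83% of all windows, 40.1% of those with an RFX1 summit and 3.25% of those with none. The single half-site GTTGCC or its reverse complement GGCAAC, which lies within these matches, was present in the same 2 member promoters, in 12.5% of all windows and in 46.3% of those with an RFX1 summit. A match describes letters of the reference and is not evidence of binding at that place.

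Most further genes of the spoke and its neighbours also had RFX1 and RFX3 sites. Of 12 other spoke genes on the list, 11 were in the annotation and Rsph10b was not matched. All 11 had an RFX1 summit inside or within 10 kb, 9 an RFX3 summit and 4 an RFX2 summit. The 4 with all 3 factors were Lrrc23, Dynll1, Maats1 (Cfap91) and Wdr66 (Cfap251), and the 5 with RFX1 and RFX3 were Iqub, Dydc1, Dydc2, Ppil6 and Cfap61. Cfap206 and Ropn1 had RFX1 alone.
The highest RFX1 fold and −log10 q of the 11 were those of Ppil6, a cyclophilin-like protein gene without an RFX2 peak, which ranked 91 in the RFX1 list. Maats1, which encodes a protein of the spoke base, had the highest RFX1 fold of the 4 with all 3 factors, at 18.9 (−log10 q 151), with an RFX2 fold of 13.1 and an RFX3 fold of 7.54. Wdr66, of the same complex at the spoke base, had folds of 15.004, 9.01 and 5.80 for RFX1, RFX2 and RFX3. Dynll1, a dynein light chain gene whose product also serves the spoke, had 17.05, 8.92 and 4.20, and the spoke gene Lrrc23 11.4, 10.6 and 11.2. Dydc1 and Dydc2 shared their peaks, since the gene models overlap there.
Among 11 nexin-dynein regulatory complex and ruler genes, RFX1 and RFX3 were called at 11 each and RFX2 at 4. Among 15 central pair genes, RFX1 was called at 14, RFX3 at 15 and RFX2 at 7. The share with RFX2 was 6 of 10 in the member list and 4 of 11, 4 of 11 and 7 of 15 in the others; these differences were not tested.

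**Figure D4:**
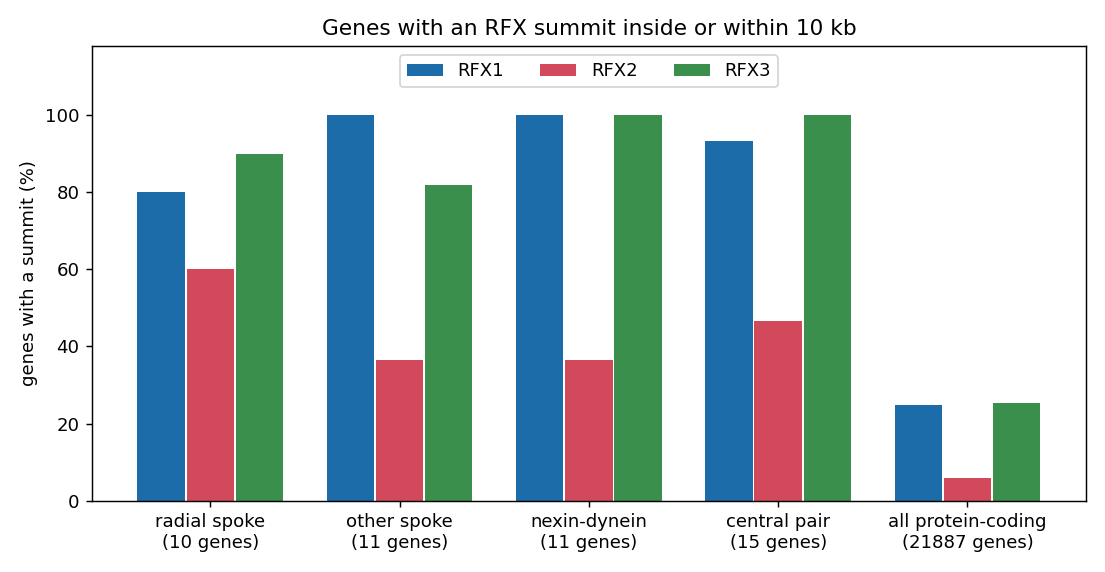
Percent of genes with an RFX1, RFX2 or RFX3 summit inside or within 10 kb, for the 10 radial spoke genes, 11 other spoke genes, 11 nexin-dynein genes, 15 central pair genes and all 21887 protein-coding genes, with 1 bar per factor. In all 4 axonemal lists each factor stands above its share among all genes, which is 24.9% for RFX1, 5.93% for RFX2 and 25.3% for RFX3.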

How the data were processed

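The authors deposited 1 list of reproducible peaks for each RFX, with replicates merged. Per the submitters' processing notes, the tools were Bowtie 0.12.7, MACS2 2.0.10.20130520 and CASAVA 1.8.2 on build GRCm38; their roles are not stated there. No label or header states the criterion for a reproducible peak, the control used or the read depth. The deposited fold enrichment (a ratio) and the deposited −log10 q were used as they stand, the deposited summit offset gave the summit, the deposited score is 10 times the −log10 q without decimals, and the deposited −log10 p was not used.

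Genes came from a RefSeq table of GRCm38.p6, which gives gene ends but no exons, so positions are given only relative to the gene. Starts and strands were taken from the RefSeq promoter table where it has them. Peaks were assigned by summit with Python 3.11.15, and the code was tested on simulated data. Background shares are over 21887 protein-coding genes on assembled chromosomes, without regard to gene length. No test was run: with merged lists no replicates remain, and members are not replicates. The members, gene lists and window were chosen with earlier results of these data known. All 10 members and all other spoke genes are named, with values for the latter where all 3 factors were called. Values are also given for end peaks of Ppil6, Cfap61, Iqub, Dydc1 and Cfap206, chosen after their values were seen. The nexin-dynein and central pair lists are given as counts.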

Additional observations from a re-analysis of the deposited data

How the results depend on the processing

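Depth is unknown and replicates are merged, so no replicate could be left out. No paired analysis was possible because each deposited list merges its replicates. Windows of 1, 5 and 50 kb, whole peaks in place of summits, the better-scoring 50% of peaks and the nearest gene only kept each count of member genes within 1.5 times of the value given. With lists shortened to the length of the RFX2 list, genes with an RFX1 summit fell to 6, those with an RFX3 summit to 4 and those with all 3 to 4. Member promoters with an X-box match numbered 2 with up to 1 mismatch, beside 4.83% of all promoter windows. With a gap of 2 bases only they numbered 3, beside 13.9%. With up to 3 mismatches all 7 had a match, but so did 89.4% of all windows. With 50 bp in place of 150 bp, a distance tried after the data were seen, 4 genes kept an RFX1 end summit. Shares of all genes are not given for the other windows, the shortened lists or the 50 bp distance, so these counts have no background beside them.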
